A study of Mus musculus with 13 samples.

Results

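The HoxC cluster of the mouse holds 9 protein-coding genes, Hoxc13, Hoxc12, Hoxc11, Hoxc10, Hoxc9, Hoxc8, Hoxc6, Hoxc5 and Hoxc4, in this order on the plus strand of chromosome 15 between positions 102921103 and 103036852 of GRCm38 (mm10). Regions of open chromatin were assigned to the cluster when their strongest summit lay within 50 kb of the body of 1 of the 9 genes in GENCODE M21. This rule took 153 of the 1360342 regions called over 13 libraries, 61 of them among the 50000 strongest regions of their library. The regions were chosen by position, with no threshold on their level beyond the call itself. Measured values entered only through the call and the choice of the strongest summit.

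Accessible DNA was tagged by ATAC-seq, which relies on the Tn5 transposase to insert sequencing adapters where chromatin is open, and 50000 cells went into each library. The cells came from the forebrain (FB), the proximal forelimb (PFL) and the distal forelimb (DFL) of E12.5 embryos that were either wild type (wt) or of the II1TDOM 542 line (542), all of the strain B6CBAF1 and all untreated, with 2 replicates for each of the 6 groups. Allele 542 is a single founder line in which the HoxD limb enhancer II1, with a LacZ reporter, was inserted once into the regulatory domain on the telomeric side of HoxD on chromosome 2, in the homozygous state per the study's text. HoxC, on chromosome 15, was not targeted in any group. Each library came from a pool of several embryos, so that differences between single embryos cannot be seen, and the dissected tissues hold several cell types, so that a weaker call from fewer cells of a type and one from less accessible DNA per cell cannot be told apart. The wt reads were mapped on mm10 and the 542 reads on a mutant genome, and genotype and mapping genome cannot be told apart here. A further wt DFL library, an earlier sample, is named where it is used.

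Hox genes encode homeodomain transcription factors that give cells their position along the head-to-tail axis and, in the limb, along the axis from shoulder to digit. In the mouse they lie in 4 clusters named HoxA to HoxD. HoxA and HoxD direct the growth and patterning of the forelimb, and their genes of group 13 act in its distal part, while HoxC is best known for its roles along the trunk, in the hindlimb, and, through Hoxc13, in hair and nails. The forebrain lies ahead of the domains in which Hox genes are active, and their chromatin there is typically held by Polycomb proteins. Open chromatin at a gene start is often present without transcription of that gene, and no RNA was measured here.

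The labelled tissues were checked by regions within 2 kb of the starts of marker genes. Of 4 distal limb markers, 4 had such a region in each of the 8 limb libraries, with a summed fold of 31.4 to 32.8 in DFL, 17.3 to 24.2 in PFL and 18.5 to 25.4 in FB. In all 4 FB libraries 3 of the 4 had one. The single markers went different ways. Hoxa13 and Hoxd13 were higher in DFL than in FB, Sall1 overlapped, and Msx2 was higher in FB (8.78 to 12.3) than in DFL (5.90 to 7.23). All 6 forebrain markers had a region in each FB library, with summed folds of 39.9 to 42.2, and 5 of them in each limb library, with 29.2 to 39.6 in DFL and 31.4 to 37.0 in PFL. Each of these 5 overlapped between limb and FB in its fold, and Six3 had no region in the 8 limb libraries. The fold is the number of tags (read ends) under a summit plus 1 over the local background plus 1, within a library. The 4 proximal limb markers did not set PFL apart, with summed folds of 16.9 to 20.7 in DFL, 18.6 to 20.9 in PFL and 18.8 to 22 in FB. The starts of 4 markers of the whole limb summed to 24.3 to 25.2 in DFL, 21.2 to 27.0 in PFL and 14.2 to 17.2 in FB, in which 1 of the 4 had no region. Lmx1b and Twist1 were higher in both limb tissues than in FB, and Prrx1 was higher in FB (6.36 to 7.98) than in DFL (4.89 to 5.58). Markers of muscle, ectoderm, and endothelium and blood, 3 genes each, had regions in every tissue. Their summed folds were up to 15.2, 8.35 and 9.31, not to be set beside the sums over 4 or 6 genes. Gata1, which marks red blood cells, had none in any library. The part of these other cells in the HoxC results was not tested. The total of tags per library, estimated from the background, was 44.0 to 70.7 M in wt libraries, 37.5 to 64.5 M in 542 libraries and 78.0 M in the earlier library.

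Joined over the 12 libraries of the 6 groups, the HoxC regions made up 29 consensus regions of 200 to 1556 bp, of which 11 had their strongest summit between genes, 13 in introns and 5 in exons. Of these, 4 carry most of the description below and are given with the 300 bp around the strongest summit (plus strand, GRCm38), with the motifs searched in capitals. They are the Hoxc13 start region, which was open in all 12 libraries, the region between Hoxc11 and Hoxc10, which had its high folds in DFL, the intronic region upstream of Hoxc8, which was found at like levels in all tissues, and the region beyond Hoxc4, which had its highest folds in PFL.

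Hoxc13 start, chr15:102920674-102920973: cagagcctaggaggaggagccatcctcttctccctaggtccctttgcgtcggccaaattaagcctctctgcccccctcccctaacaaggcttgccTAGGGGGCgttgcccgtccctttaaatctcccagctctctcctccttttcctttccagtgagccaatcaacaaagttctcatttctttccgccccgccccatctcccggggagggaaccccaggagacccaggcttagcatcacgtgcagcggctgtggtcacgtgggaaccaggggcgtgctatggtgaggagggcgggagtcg

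between Hoxc11 and Hoxc10, chr15:102959926-102960225: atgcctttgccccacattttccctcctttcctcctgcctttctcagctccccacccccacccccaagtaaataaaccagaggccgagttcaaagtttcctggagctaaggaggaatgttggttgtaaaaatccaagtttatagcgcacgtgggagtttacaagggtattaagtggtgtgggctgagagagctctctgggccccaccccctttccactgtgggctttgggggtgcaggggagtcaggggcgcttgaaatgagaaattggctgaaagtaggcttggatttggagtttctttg

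upstream of Hoxc8, chr15:102987461-102987760: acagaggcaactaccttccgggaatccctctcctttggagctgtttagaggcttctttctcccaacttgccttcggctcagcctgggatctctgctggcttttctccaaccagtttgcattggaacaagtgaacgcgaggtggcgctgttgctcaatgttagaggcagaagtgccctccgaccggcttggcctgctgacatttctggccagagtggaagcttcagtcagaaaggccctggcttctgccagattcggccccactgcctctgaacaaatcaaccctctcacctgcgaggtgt

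beyond Hoxc4, chr15:103085901-103086200: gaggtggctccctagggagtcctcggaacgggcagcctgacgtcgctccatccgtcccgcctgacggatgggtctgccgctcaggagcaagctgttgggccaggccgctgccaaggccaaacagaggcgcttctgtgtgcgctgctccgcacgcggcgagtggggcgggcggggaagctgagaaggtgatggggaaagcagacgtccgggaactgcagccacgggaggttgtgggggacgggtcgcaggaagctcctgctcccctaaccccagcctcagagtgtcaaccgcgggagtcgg

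On both strands of such windows, 4 forms of the core recognised by CTCF (CAGGGGGC, TAGGGGGC, CAGGTGGC and CAGAGGGC), a site of the HOX13 proteins (CCAATAAA) and a MEIS site (TGACAG) were sought. Of the 29 HoxC windows, 2 held a CTCF core form, against 7.83% of all 252026 consensus regions of the genome. One of these is the TAGGGGGC in the Hoxc13 start window. The MEIS letters were in 3 HoxC windows (23.1% of all windows) and the HOX13 letters in none (1.81%). No other capitals therefore stand in the sequences above. The windows were rich in G and C, with a median of 60.7% (range 46.0% to 74.0%) and 18 CpG dinucleotides (0 to 45), against medians of 46.0% and 3 over all windows. The Hoxc11 to Hoxc10 window, with 51.7% and 4 CpG, and the window upstream of Hoxc8, with 55.3% and 9 CpG, were below the HoxC medians, and the window beyond Hoxc4, with 68.0% and 25 CpG, was above them.

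Most of the cluster was open at a modest level. The 136 regions of the 12 libraries had folds of 2.1 to 9.52 with a median of 4.33, and 13 to 76 tags under the summit with a median of 26. Within their own libraries they ranked between the 0.607th and the 83.6th percentile. Of the 29 consensus regions, 19 were called in at least 1 of the 8 limb libraries but in none of the 4 FB libraries, against 47.2% of all consensus regions of the genome, 1 in FB libraries alone (23.6% of all), and 9 in both. A single library had 9 of them (30.5% of all), each time a limb library, and 2, at the Hoxc13 start and in the Hoxc6 intron, in all 12, as were 10.7% of all consensus regions of the genome. A region that was not called may still hold tags below the threshold of the peak caller.

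**Figure D1:**
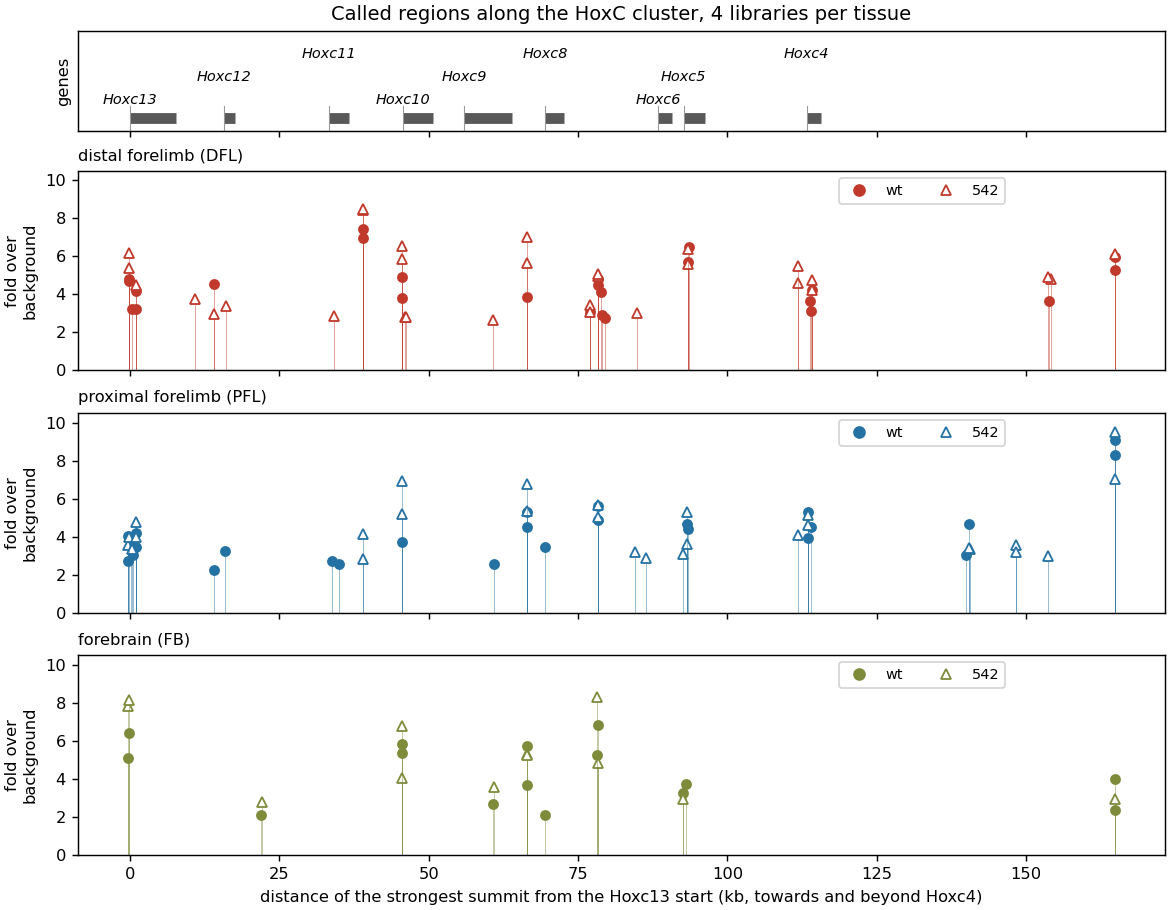
Fold over background (vertical axes) of each called HoxC region against the distance of its strongest summit from the Hoxc13 start (horizontal axis, kb), for the 4 libraries of each tissue, with wt as filled circles and 542 as open triangles. Grey bars are the 9 genes (for Hoxc9 and Hoxc4 the transcript that starts later). The high DFL points between Hoxc11 and Hoxc10 reach 8.50, the PFL points at the right end reach 9.52, and the FB panel has its highest points at the Hoxc13 start and in the Hoxc6 intron.

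Taking the genes in their order, the posterior genes (Hoxc13 to Hoxc10) had 2 starts that were regularly open. The Hoxc13 start region (102920599 to 102921775) begins 504 bp ahead of the gene. Its fold was 4.83 and 4.73 in wt DFL, 6.18 and 5.41 in 542 DFL, 4.02 and 3.47 in wt PFL, 3.56 and 3.99 in 542 PFL, 6.42 and 5.11 in wt FB, and 7.85 and 8.16 in 542 FB. The 4 PFL libraries were thus the lowest of the 12, and they overlapped neither the 4 DFL nor the 4 FB libraries. FB ranged from 5.11 to 8.16 and DFL from 4.73 to 6.18, so that these 2 overlapped. These values are the highest call of each library within the region. In the earlier wt DFL library this was 5.57, within the DFL range, from a call that reached into the intron. Its separate call ahead of the gene start was 2.46, below all PFL libraries. In the limb this start and an intronic region 1011 bp behind it (102921867 to 102922248) were called side by side. The intronic region had folds of 3.22 to 4.75 in 7 of 8 limb libraries and was called in no FB library.

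Hoxc12 and Hoxc11, the next genes, were called rarely. A region within 2 kb of the Hoxc12 start was found in 3 DFL libraries (folds 4.55, 2.95 and 3.40), in 1 PFL library (3.22) and in no FB library. The Hoxc11 start had a region in 1 DFL library (2.85) and 1 PFL library (2.73). Between Hoxc12 and Hoxc11 lies Hotair, a long non-coding RNA gene on the opposite strand (102944062 to 102947730), and the one region found in FB alone (102942919 to 102943212) lies 850 bp beyond its 3′ end. It was called at 2.1 and 2.79 in 1 wt and 1 542 FB library. The earlier wt DFL library had an overlapping region, at 2.78, and is not among the 12 libraries.

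DFL and PFL stood apart in the gap between Hoxc11 and Hoxc10 (102959569 to 102960800), with its summit 2368 bp behind the Hoxc11 body and 5649 bp from the Hoxc11 start. Its fold was 7.45 and 6.96 in wt DFL and 8.47 and 8.50 in 542 DFL, from 62, 47, 63 and 66 tags over backgrounds of 7.46, 5.90, 6.56 and 6.88. In PFL it was called in neither wt library and at 4.16 and 2.80, from 20 and 13 tags, in the 542 libraries. No FB library had it. Among the 50000 strongest regions it was present in 4 of 4 DFL and 0 of 4 PFL libraries, the one HoxC region of 11 to meet this rule, which 2.54% of all 105641 consensus regions met. No HoxC region met the opposite rule (4 of 4 PFL and 0 of 4 DFL), which 2.02% of all regions met. In the earlier wt DFL library its fold was 5.41, from 68 tags over a background of 11.8, and its rank was 50297, just outside the 50000 strongest.

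The start of Hoxc10, which is known for its part in the hindlimb and lumbar trunk, was open in all tissues (102966252 to 102967406). Its fold was 3.81 and 4.90 in wt DFL, 6.54 and 5.85 in 542 DFL, 3.70 in 1 wt PFL library, 6.93 and 5.19 in 542 PFL, 5.37 and 5.82 in wt FB, and 4.05 and 6.77 in 542 FB. It was not called in the other wt PFL library. The tissues overlapped, and in both limb tissues the 542 libraries lay above the wt libraries, while in FB they did not.

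The middle of the cluster (Hoxc9, Hoxc8 and Hoxc6) had no regularly open start of a protein-coding transcript. No library had a region within 2 kb of either Hoxc9 start, and a region further inside the gene (102981699 to 102982190, strongest summit in a coding exon) was found in 4 libraries, 1 of DFL, 1 of PFL and 2 of FB, at 2.57 to 3.54. The Hoxc8 start was called in 1 PFL library (3.47) and 1 FB library (2.1), and the start of the protein-coding Hoxc6 transcript in 1 PFL library (2.87). A region over the start of a non-coding Hoxc6 transcript (102997973 to 102998341) was called in 3 DFL libraries, at 3.05, 3.47 and 3.06. No PFL or FB library had it, nor did the second wt DFL or the earlier wt DFL library. The stronger open chromatin here lay between the protein-coding starts. The region upstream of Hoxc8 (102987427 to 102987787), 2996 bp ahead of its start and in an intron of the long Hoxc5 gene model, had folds of 3.85, 7.01 and 5.66 in 3 DFL libraries, 5.31, 4.52, 5.35 and 6.79 in PFL, and 5.72, 3.69, 5.32 and 5.23 in FB. The missing DFL library was the first wt replicate, and the tissues overlapped.

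The region in the Hoxc6 intron (102998710 to 103000265) was the second of the cluster called in all 12 libraries. It was even across the limb, at 4.50 to 5.06 in DFL and 4.89 to 5.69 in PFL, and wider in FB, at 5.25, 6.81, 4.81 and 8.31. Non-coding transcripts of Hoxc6 start on either side of it.

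The anterior genes (Hoxc5 and Hoxc4) each had a consensus region with a call in all 8 limb libraries. At the Hoxc5 start itself a weak region (103013590 to 103013918) was called in 2 FB libraries, at 3.27 and 2.92, and in 1 limb library, a 542 PFL library, at 3.08. Further inside Hoxc5, at the microRNA gene Mir615, a region (103014078 to 103015259) had folds of 6.50 and 5.70 in wt DFL, 5.63 and 6.39 in 542 DFL, 4.40 and 4.67 in wt PFL, and 3.59 and 5.30 in 542 PFL. All 4 DFL libraries lay above all 4 PFL libraries. In FB 1 library had it, at 3.74, through a region of 257 bp that ends before Mir615. In 5 limb libraries the region covered the whole hairpin (103014910 to 103015001), in 2 it reached 10 and 12 bp into it, and in 1, the second 542 PFL library, it also ended before it. The mature products of the hairpin are given from RefSeq with the seed, bases 2 to 8, in capitals.

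mmu-miR-615-5p: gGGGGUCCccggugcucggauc

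mmu-miR-615-3p: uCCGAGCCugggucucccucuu

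The Hoxc4 start consensus region (103034458 to 103035483) held a call in all 8 limb libraries and in no FB library. It was the one HoxC region of 29 to do so among all deposited regions, against 3.81% of all consensus regions of the genome. Its fold was 4.25 and 3.15 in wt DFL, 4.79 and 4.23 in 542 DFL, 5.31 and 3.92 in wt PFL, and 5.14 and 4.59 in 542 PFL. The levels of DFL and PFL overlapped. The place of the strongest summit within the region did not, which was noticed after the values were seen and is given with no test. Counted from the start of the shorter Hoxc4 transcript (103034395), it lay at 948, 680, 885 and 940 bp in DFL and at 219, 234, 209 and 202 bp in PFL. The earlier wt DFL library had it at 715 bp, within the range of the other DFL libraries. The first wt PFL library also had a second, weaker region over the DFL position. The second wt and the first 542 PFL libraries had a wide region that overlapped the DFL regions. The region of the second 542 PFL library ended at 103034717, ahead of every DFL region (from 103034818 on). The consensus region thus joins calls that do not all overlap, and no base was called in all 8 limb libraries. A further region, with its summit 1523 bp ahead of the same start (103032739 to 103033038), was called in no wt library. It had folds of 4.61 and 5.51 in the 542 DFL libraries and 4.11 in 1 542 PFL library. Hoxc4 has a longer transcript that starts further ahead (103018934), and no library had a region within 2 kb of that start.

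**Figure D2:**
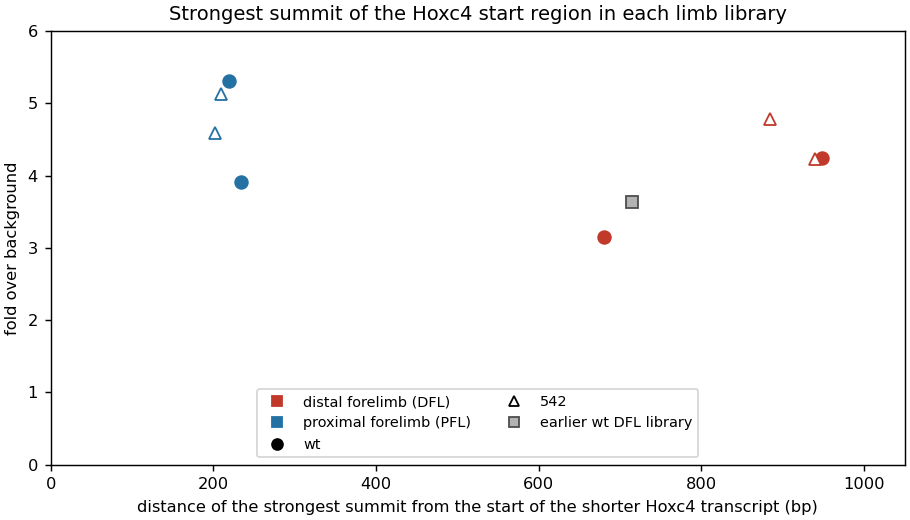
Distance of the strongest summit of the Hoxc4 start region from the start of the shorter Hoxc4 transcript (horizontal axis, bp) against its fold over background (vertical axis), 1 point per limb library, with wt as circles, 542 as triangles and the earlier wt DFL library as a grey square. The PFL libraries lie between 202 and 234 bp and the DFL libraries between 680 and 948 bp, at overlapping folds.

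Beyond Hoxc4, 5 regions lay in the flank. The region at its far end (103085766 to 103086699), 49.2 kb from the Hoxc4 body and therefore just inside the 50 kb rule, had the highest mean fold of the cluster over the 8 limb libraries (6.40, with the library that lacked it counted as 0). In PFL it was 9.07, 8.28, 9.52 and 7.02, from 69, 76, 55 and 39 tags. In DFL it was 5.27, 5.95 and 6.12 in 3 libraries, and the first 542 replicate had none. In FB it was 2.34, 3.97 and 2.92 in 3 libraries. Where it was called, all PFL libraries were thus above all DFL libraries, and these above all FB libraries. The earlier wt DFL library, at 12.1 from 129 tags, was the exception and stood above all 12. The next region outward, 50.5 to 50.7 kb from the Hoxc4 body and just outside the rule, had folds of 2.79 to 4.62 in all 8 PFL and FB libraries and the earlier library, and was called in none of the 4 DFL libraries.

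The other flanking regions were weaker. One (103074695 to 103075437) had folds of 3.66, 4.79 and 4.91 in 3 DFL libraries, 2.97 in 1 PFL library and none in FB, and another (103061499 to 103061791) was called at 4.66, 3.37 and 3.40 in 3 PFL libraries and in no other tissue.

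**Figure D3:**
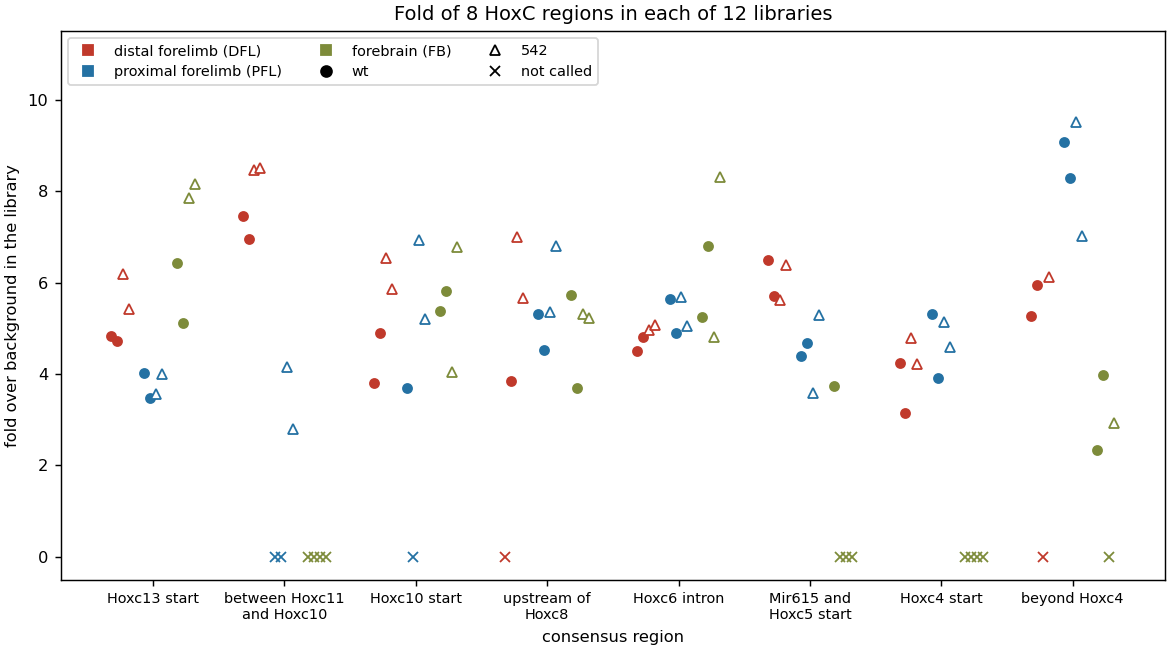
Fold over background (vertical axis) of 8 HoxC consensus regions (horizontal axis, in their order along the chromosome) in each of 12 libraries. Colours are tissues, filled circles wt, open triangles 542, and a cross at 0 marks a library in which the region was not called. The region between Hoxc11 and Hoxc10 is at 6.96 to 8.50 in DFL and at most 4.16 in PFL, and the Hoxc4 start is called in no FB library.

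Whether limb and forebrain differ in the regions they open was tested over the whole genome, by Fisher's exact test of presence among the 50000 strongest regions in 8 limb against 4 FB libraries, with Benjamini-Hochberg adjustment over 105641 consensus regions. Of 11 HoxC regions, 0 passed in either direction, against 4.82% of all regions called in the limb and 8.8% called in FB. At an unadjusted p under 0.05, 2 did, the Mir615 region and the region beyond Hoxc4, each present in 7 of 8 limb and 0 of 4 FB libraries (p = 0.0101, adjusted p = 0.0599 by Fisher's exact test). Genome-wide, only regions present in all limb and no FB libraries, or the reverse, passed. Left out singly, 1 library turned each region into a call by Fisher's exact test. For Mir615 it was the first 542 PFL library (adjusted p = 0.0212), and beyond Hoxc4 the first 542 DFL library (adjusted p = 0.0206). Each was the limb library that lacked the region among its 50000 strongest, so that 7 of 8 became 7 of 7 by construction. Without any other single library neither was called (Fisher's exact test, adjusted p = 0.0820 to 0.134). Both were called with the earlier library included (adjusted p = 0.0439 by Fisher's exact test). With all deposited regions the Hoxc4 start region was called in their place (8 of 8 against 0 of 4, adjusted p = 0.0197 by Fisher's exact test). The 8 limb calls joined in it do not all overlap, as given above.

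Levels were compared with limma for regions called in every library of a comparison, on log2 folds centred on the median of each library. For limb against FB, 2 HoxC regions could be tested among 27032. The Hoxc13 start was lower in the limb by a log2 difference of -0.43 (SE 0.084, limma adjusted p = 0.00371), as were 14.8% of all tested regions, with 21.9% higher. Its mean fold was 5.29 ± 0.668 in DFL, 3.76 ± 0.287 in PFL and 6.88 ± 1.41 in FB (SD, n = 4 each). The FB libraries had 51.4 to 70.7 M tags and the limb libraries 37.5 to 54.5 M, and the part of depth in this difference was not tested. The Hoxc6 intron region differed by -0.10 (SE 0.14, limma adjusted p = 0.593). Without centring, the median of all regions moved from 0.034 to -0.14, the genome-wide split of limb-higher and limb-lower calls turned from 5927 and 3992 to 3548 and 9315, and the Hoxc13 start was still lower.

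For DFL against PFL, 4 HoxC regions were tested among 41281. The Hoxc13 start was higher in DFL by a log2 difference of 0.43 (SE 0.11, limma adjusted p = 0.0455), as were 6.14% of all tested regions, with 5.97% lower. This call was lost with the replicate number as a block (limma adjusted p = 0.0681), and without any single library other than the second 542 PFL library (limma adjusted p = 0.0571 to 0.138), with the log2 difference between 0.34 and 0.49. With the earlier library included, the start and the intronic region behind it were joined into 1 region, which did not pass (0.29, limma adjusted p = 0.111). The Mir615 region differed by 0.38 (SE 0.16, limma adjusted p = 0.179) and passed without the second 542 PFL library (0.54, limma adjusted p = 0.0372). The Hoxc6 intron (-0.20, SE 0.089) and the Hoxc4 start (-0.27, SE 0.14) were not called, with limma adjusted p = 0.213 and 0.261. The Hoxc4 value compares calls that do not all overlap. The regions between Hoxc11 and Hoxc10 and beyond Hoxc4 lacked a value in at least 1 limb library and could not be entered. Without the first 542 DFL library, the one that lacked it, the region beyond Hoxc4 could be tested and was lower in DFL (-0.58, SE 0.13, limma adjusted p = 0.0379).

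For the genotypes no HoxC region passed. In the limb the log2 difference of 542 minus wt was 0.21 at the Hoxc13 start, 0.14 in the Hoxc6 intron, 0.03 at Mir615 and 0.26 at the Hoxc4 start (SE 0.11, 0.089, 0.16 and 0.14, limma adjusted p = 0.416 to 0.95), with 0 of 4 at an unadjusted p under 0.05, and 0.00484% of all regions were called in each direction. Over the 3 tissues the Hoxc13 start differed by 0.33 (SE 0.079, limma adjusted p = 0.139) and had an unadjusted p under 0.05, and of all regions 0.0925% were called higher and 0.0999% lower. None of 11 HoxC regions was present in all 6 libraries of a genotype and none of the other, and 0.0133% (wt) and 0.0151% (542) of all regions were. The difference of 542 minus wt did not pass between DFL and PFL for any of the 4 regions (limma adjusted p = 0.817 to 0.982).

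The number of HoxC regions per library sums these patterns. Among all deposited regions the DFL libraries had 13, 12, 12 and 18, the PFL libraries 16, 10, 16 and 12, and the FB libraries 10, 5, 5 and 7, each with the 2 wt libraries first. Among the 50000 strongest the DFL libraries had 3, 4, 8 and 10, the PFL libraries 5, 3, 5 and 6, and the FB libraries 4, 3, 2 and 4. In the second count the difference between the limb, with 5.50 ± 2.45 (SD, n = 8), and FB, with 3.25 ± 0.957 (SD, n = 4), did not pass the two-sided exact permutation test (p = 0.143). With all deposited regions the means were 13.6 ± 2.72 and 6.75 ± 2.36, and the exact permutation p = 0.00404 was the smallest that these counts allow. The full lists held 85070 to 118297 regions in the limb and 94036 to 109886 in FB, and the tags per library are given above. The part of list length and depth in this difference was not tested.

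The count did not pass between DFL and PFL (6.25 ± 3.30 against 4.75 ± 1.26, SD, n = 4 each, two-sided exact permutation p = 0.486). By genotype the DFL mean was 9.0 for 542 and 3.5 for wt, the PFL mean 5.5 for 542 and 4.0 for wt, and the FB mean 3.0 for 542 and 3.5 for wt. In DFL both 542 libraries were above both wt libraries, but 2 against 2 libraries cannot reach the threshold, and over the 3 tissues the mean difference of 2.17 did not pass (two-sided exact permutation within tissue, p = 0.130). The 50000 strongest were 42.3% and 47.8% of the regions of the wt DFL libraries and 49.8% and 51.2% of those of the 542 DFL libraries, which had fewer tags (41.4 and 40.2 M against 54.5 and 44.0 M), and the part of depth in this difference was not tested. With all deposited regions the means of 542 and wt were 11.7 and 11 (exact permutation p = 0.741).

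**Figure D4:**
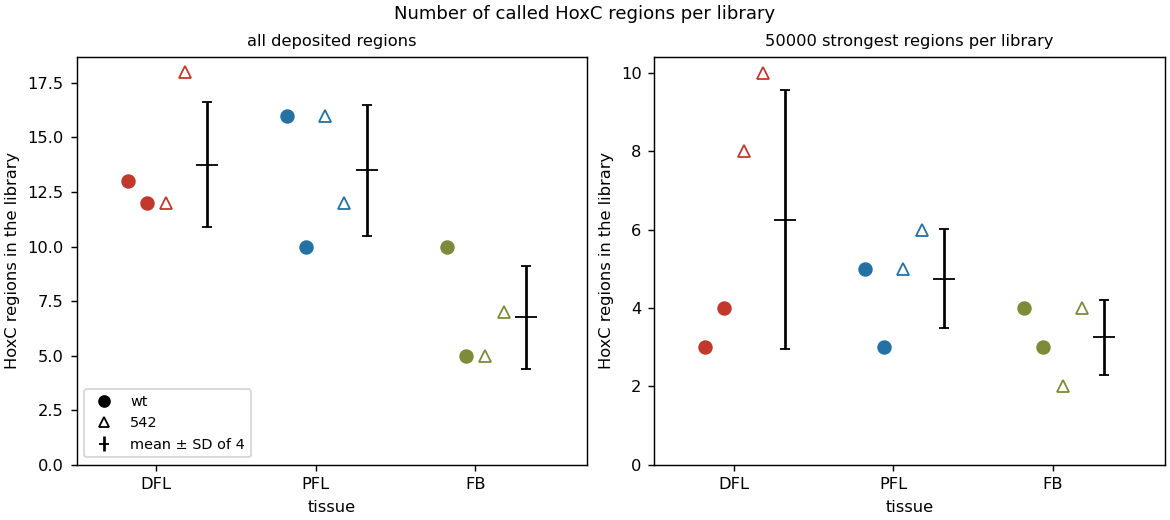
Number of HoxC regions in each library (vertical axes) by tissue (horizontal axes), among all deposited regions (left) and among the 50000 strongest regions of the library (right), with wt as filled circles, 542 as open triangles and the mean ± SD of 4 libraries in black. On the left the FB libraries lie at 5 to 10 and the limb libraries at 10 to 18, and on the right the 2 highest libraries are those of 542 DFL, at 8 and 10.

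The share of cluster regions on the anterior side, from Hoxc4 to Hoxc9, was compared to see whether tissues open different ends of the cluster. Among all deposited regions between the outer ends of the cluster it was 58.3% ± 3.33 in DFL, 59.7% ± 6.46 in PFL (SD, n = 4 each) and 67.9% ± 13.1 in FB. Neither DFL against PFL (difference -1.33, two-sided exact permutation p = 0.657) nor limb against FB (-8.92, exact permutation p = 0.107) passed. Among the 50000 strongest regions the share was 60.1% ± 8.10 in DFL and 88.8% ± 13.1 in PFL (difference -28.6, exact permutation p = 0.0286, the smallest the design allows), from 2 to 7 regions per library. The posterior region between Hoxc11 and Hoxc10 is one of those that DFL had and PFL lacked in these lists.

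The density at HoxC lay, over all 12 libraries, between those of the other clusters, which were compared by the same 50 kb rule in each library, in a test chosen after the counts were seen. Among the 50000 strongest regions HoxC had 2.20 ± 1.07 regions per 100 kb (SD, n = 12), HoxA 5.03 ± 2.07, HoxD 4.19 ± 1.84 and HoxB 0.852 ± 0.449. HoxC was below HoxA in 12 of 12 libraries (two-sided exact sign permutation within libraries, p = 0.000488, adjusted over 3 comparisons p = 0.00146), below HoxD in 11 of 12 and above HoxB in 11 of 12 (both p = 0.00244, also after adjustment). By tissue HoxC went from 2.90 ± 1.53 in DFL and 2.20 ± 0.583 in PFL to 1.51 ± 0.444 in FB (SD, n = 4 each), HoxA from 6.45 ± 0.832 and 6.33 ± 0.398 to 2.31 ± 0.244, and HoxD from 5.59 ± 0.587 and 5.08 ± 0.415 to 1.91 ± 1.13. In FB HoxC (0.927 to 1.85) and HoxD (1.02 to 3.56) overlapped, and HoxC was below HoxD in 3 of 4 FB libraries, against 4 of 4 in each limb tissue.

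**Figure D5:**
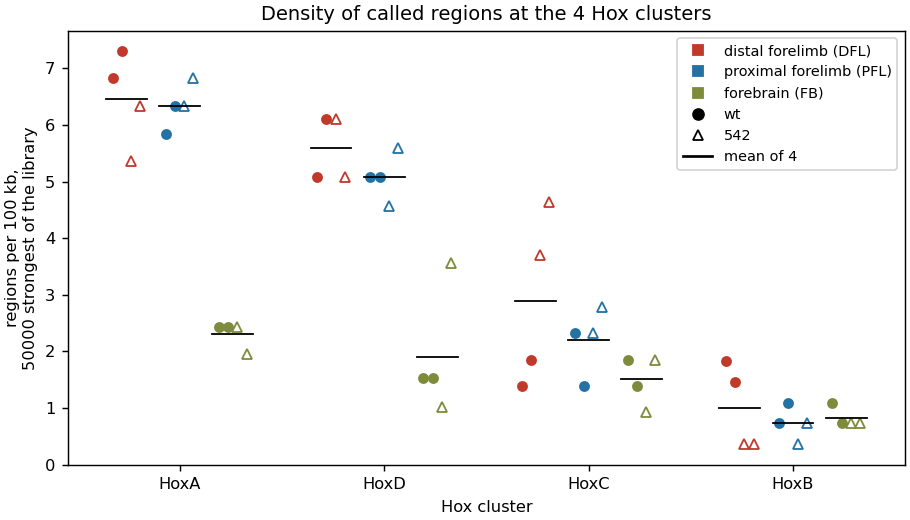
Regions per 100 kb among the 50000 strongest of each library (vertical axis) at the 4 Hox clusters (horizontal axis), by tissue (colour) and genotype (circle for wt, triangle for 542), with the mean of 4 libraries as a line. HoxC, with a mean of 2.20 over 12 libraries, lies below HoxA and HoxD and above HoxB, and in FB it overlaps HoxD.

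At the gene starts HoxC also lay between the other clusters. Of the 9 HoxC genes, 4 had a region within 2 kb of a start in all 4 DFL libraries (Hoxc13, Hoxc10, Hoxc5, through the Mir615 region, and Hoxc4), 3 in all 4 PFL libraries (the same without Hoxc10) and 2 in all 4 FB libraries (Hoxc13 and Hoxc10). Of 11 Hoxa genes it was 9 in DFL, 9 in PFL and 4 in FB, of 9 Hoxd genes 8, 8 and 3, and of 10 Hoxb genes 0, 1 and 0.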

How the data were processed

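The authors trimmed adapters with cutadapt, mapped read pairs with bowtie2 on mm10 (wt) or on a mutant genome (542), removed poor alignments and duplicates with bamtools and picard, and ran MACS2 on every library separately, without a control and with no normalization between libraries. The deposited fold is a ratio of tags under a summit plus 1 to the background plus 1. Each deposited summit also carries a −log10 p-value and a −log10 q-value from MACS2, and the deposited score, a whole-number form of the latter, was not used. The summit offset gave positions.

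Summits of 1 region were represented by the strongest. Tags were recovered from fold and p-value within 0.001 in a sample of 3000 summits per library with a fold under 5 (99.9% to 100% recovered). The tags of all HoxC regions, at any fold, were recovered within the same limit. Regions on scaffolds and on chromosome 2 from 75 Mb were left out of genome-wide fits, regions were joined (overlap of at least 1 bp) into 252026 consensus regions, or 105641 from the 50000 strongest per library by q and then fold, and Fisher's exact tests, limma and exact permutation tests (threshold 0.05) were run as given, after tests on simulated data. All members and lists were chosen with earlier results of these data known. Named were the region at each Hoxc start (within 2 kb), the 5 highest mean folds in limb and FB with regions not called as 0, and regions that passed a test or an all-or-none rule; other named regions were chosen after their values were seen. No depth but the estimate from the background was used, and arms of 2 libraries limit precision. Replicates were separate pools of embryos. Sequences are of GRCm38.p6 from RefSeq. Python 3.11.15, pandas 2.3.3, scipy 1.17.1 and limma were used. A list of cofactor genes and 1 motif are not reported here. Alternatives are given with the closing observations.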

Additional observations from a re-analysis of the deposited data

Results flagged for a closer look

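Of 26 groups of 4 libraries tested for a single library far from the other 3 (Dixon's test, which flags about 1 in 20 groups by chance), 3 held one. The second 542 DFL library had 18 HoxC regions among all deposited regions, and the other DFL libraries had 12 to 13. The same library had 53.3% of its cluster regions on the anterior side, and the other 3 had 60.0% each. The first wt PFL library had 50.0% on that side, and the other PFL libraries had 62.5% to 63.6%.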

How the results depend on the processing

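The count of HoxC regions per library passed between limb and FB with all deposited regions (difference 6.875, exact permutation p = 0.00404), a −log10 q of at least 10 (2.125, p = 0.00808) and summits counted separately (5.5, p = 0.0303), and not in 17 other alternatives. Between DFL and PFL it turned with the 20000 strongest regions (-0.25). Between genotypes none of 20 alternatives passed (exact permutation p = 0.05 to 1). The anterior share of DFL against PFL passed with the 50000 strongest regions (-28.6), and with 1 library left out ranged from -4.55 (without the first wt PFL library, exact permutation p = 0.0286) to 0.341 (without the second 542 DFL library). For limb against FB it turned with a −log10 q of at least 10 (4.38), the 50000 strongest regions (3.60) and summits counted separately (0.649), and with 1 library left out ranged from -14.9 (without the first 542 FB library, exact permutation p = 0.00606) to -4.89. The causes were not tested.

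HoxC regions called more often in the limb were 1 with all deposited regions, 2 with the earlier library, 0 to 1 with 1 library left out, and 0 otherwise. HoxC regions higher in DFL than PFL were 0 with the replicate block, with 500 bp windows, with the 50000 strongest regions (where the Hoxc13 start could not be tested) and with the earlier library included, 0 to 2 with 1 library left out, and 1 otherwise, and those lower were 0 to 1 with 1 library left out (1, the region beyond Hoxc4, without the first 542 DFL library). The 1 region lower in limb than FB was absent with the 50000 strongest regions (0), where it could not be tested. The differences of density between HoxC and the other clusters, added after seeing the data, passed in all 13 alternatives each.

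Replicate numbers did not pair the libraries. Correlations of deviations between equal numbers in 15 pairs of groups were -0.038 to 0.015. With the block the exact permutation p was 0.16 for the limb and FB counts, 0.5 for DFL and PFL, 0.1875 for the genotypes, and 0.778 and 0.111 for the 2 shares. Regions absent from a list may be open below its limit, and the depth of the shallowest library, 37.5 M tags, limits the weakest calls.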
